A study of Mus musculus and Mus musculus
Rattus norvegicus with 30 samples.

Results

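The 10 genes described here encode parts of the Nodal and Bmp signalling pathways and the Id proteins that act downstream of Bmp. They are Nodal, Tdgf1, Lefty1, Lefty2, Smad7, Bmp4, Bmp7, Id1, Id2 and Id3, chosen by name. All 10 were found among the 19919 genes counted in mESCs, among 34923 on the mouse allele of RMES cells and among 25245 on the rat allele, and all 10 passed the filter on low counts in each table. When Cdx2 was induced in mESCs, Id2 rose about 20.6-fold, Bmp4 fell 11.3-fold, Id3 fell 7.90-fold and Id1 fell 2.82-fold, while Nodal moved less than the 2-fold threshold. These folds pool 9 constructs, 7 of them mutants, and Id1 did not pass the threshold in mCdx2-OE (log2 −0.84), the intact mouse protein, or in rCdx2-OE (−0.45, adjusted p = 0.074), the intact rat protein. Among rat Cdx2 and its mutants, Id1, Id2, Id3 and Bmp4 were lower where an asparagine of the DNA-binding domain was deleted. Mouse Cdx2 carries the same residues at the 3 changed positions as the mutant with every change. Id1, Id2 and Id3 were higher in mCdx2-OE than in that mutant, but there a batch cannot be told apart from the proteins. In RMES cells the mouse and rat alleles passed a test of a different response for all 10 genes, against 62.1% of 13605 genes tested. The Smad7 difference was lost in some of the other fits. The separate Lefty1 and Lefty2 differences are uncertain, since these close paralogs were paired by symbol only and may share reads.

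The samples were mouse embryonic stem cells (mESC) and RMES cells, an allodiploid line made by fusing mouse and rat haploid embryonic stem cells, so that each RMES nucleus carries 1 mouse and 1 rat copy of every gene. Both were cultured with PD0325901, Chir99021 and LIF, which inhibit Mek and Gsk3 and stimulate Stat3. The Cdx2 transgenes were Flag-tagged, delivered by lentivirus and switched on by doxycycline (DOX) through a Tet-On promoter. Stable lines were used, and the number of clones is not given in the sources used here. In mESCs, RNA-seq covered 10 conditions with 2 libraries each: WT, mouse Cdx2 (mCdx2-OE), rat Cdx2 (rCdx2-OE), and rat Cdx2 with mouse residues put into its DNA-binding domain. Change 1 replaces tyrosine with phenylalanine, change 2 replaces alanine with serine, and change 3 deletes an asparagine; the lines rCdx2_R1, R2, R3, R12, R13, R23 and R123 carry the changes that their digits name. The labels call the controls WT, and do not say whether these were uninduced transgenic cells or parental cells. DOX was given for 2 days to the mCdx2 and rCdx2 lines, and the time for the mutants is not given in the sources used here. In RMES cells, RNA-seq covered 2 WT libraries, 1 mCdx2-OE and 1 rCdx2-OE library, each counted once on the mouse and once on the rat genome. ATAC-seq (1 WT and 1 mCdx2-OE library) was done in mESCs, and ChIP-seq with an anti-Flag antibody (1 mCdx2-OE and 1 rCdx2-OE library) in both cell types. Nothing in the labels ties replicates to separate cultures, so p-values measure the spread between these libraries, which may be technical.

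Nodal is a secreted ligand of the TGF-beta family that signals through activin receptors, the co-receptor Tdgf1 (Cripto) and the transcriptional mediators Smad2 and Smad3. Lefty1 and Lefty2 are secreted inhibitors of Nodal and are themselves targets of the pathway, and Smad7 is an intracellular inhibitor of the receptors, so their transcripts are often read as output of the pathway. Bmp4 and Bmp7 signal through Smad1 and Smad5, whose best known targets are the Id genes. Id proteins have a helix-loop-helix but no basic region, so they bind E proteins such as Tcf3 and keep them from DNA. In the early mouse embryo Nodal is made in the epiblast and Bmp4 in the extraembryonic ectoderm derived from trophectoderm, the lineage that Cdx2 specifies, and Id2 is an early marker of that lineage.

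RNA-seq depth was 74960057 to 94686029 counts in WT mESCs, 12698443 to 24315929 in the 18 induced mESC libraries, 36166038 to 41418817 on the mouse allele and 29453412 to 35249756 on the rat allele of RMES cells. The lowest member count in any library was 9 read pairs, for Bmp4 in an induced mESC library. Levels are given in CPM units, the share of a library's counts scaled by edgeR's TMM method. The Cdx2 transcript itself was at 1.36 and 1.21 CPM in the WT mESC libraries and at 37.2 to 147 CPM in the 18 induced ones. The 8 embryonic stem cell markers together held 4012 to 4058 CPM in WT mESCs and 3067 to 4749 CPM in induced ones. Markers of feeder fibroblasts held 34.4 to 34.6 CPM in WT and 1.28 to 4.42 CPM in induced mESCs. Primed epiblast markers went from 501 CPM in WT to 110 to 255 CPM in induced libraries, primitive endoderm markers from 5.78 to 6.25 CPM to 16.6 to 33.0 CPM, and trophoblast stem cell markers other than Cdx2 from 159 to 160 CPM to 158 to 766 CPM. These are sums, and the primed epiblast markers did not move together. Over the 9 constructs Dnmt3b and Sox3 were called lower and Otx2 higher. The part of such cells and states in the differences described next was not tested, and fewer cells of a type and less RNA per cell cannot be told apart in bulk RNA.

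ChIP-seq in mESCs gave 91665 peaks called on merged reads, of which 15 lay within 30 kb of the start of a member, and the DNA under 6 of these is shown first. Sequences are the central bases of the peak, at most 300, on the plus strand of GRCm38 (mm10), in lower case, with matches to the Cdx2-type motif TTTATNG in capitals on either strand. Id2 and Bmp4 come first because there a Cdx2 peak lay in chromatin that was more open in mCdx2-OE, upstream of the members with the largest rise and the largest fall over the 9 constructs. Id3, Lefty2 and Lefty1 are shown for a motif match, and the peaks at Lefty2 and Lefty1 were also called in RMES cells, although another Cdx2 peak lay nearer to Lefty2. Nodal is shown for a peak at its promoter.
Id2, 17.8 kb upstream (intergenic), chr12:25114757-25115056: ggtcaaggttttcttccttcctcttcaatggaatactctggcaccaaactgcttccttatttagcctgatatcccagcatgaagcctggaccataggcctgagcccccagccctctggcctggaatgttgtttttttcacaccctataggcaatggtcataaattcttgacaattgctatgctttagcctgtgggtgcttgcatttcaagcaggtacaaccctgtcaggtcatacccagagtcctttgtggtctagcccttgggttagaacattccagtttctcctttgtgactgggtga
Bmp4, 8.01 kb upstream (intergenic), chr14:46398535-46398818: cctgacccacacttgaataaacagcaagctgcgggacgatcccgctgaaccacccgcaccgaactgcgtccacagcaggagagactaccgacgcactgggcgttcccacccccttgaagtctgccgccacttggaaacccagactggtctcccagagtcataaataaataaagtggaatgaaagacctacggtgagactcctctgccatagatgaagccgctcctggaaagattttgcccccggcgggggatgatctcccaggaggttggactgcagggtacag
Id3, 3.49 kb downstream of the start (intergenic), chr4:136146835-136147134: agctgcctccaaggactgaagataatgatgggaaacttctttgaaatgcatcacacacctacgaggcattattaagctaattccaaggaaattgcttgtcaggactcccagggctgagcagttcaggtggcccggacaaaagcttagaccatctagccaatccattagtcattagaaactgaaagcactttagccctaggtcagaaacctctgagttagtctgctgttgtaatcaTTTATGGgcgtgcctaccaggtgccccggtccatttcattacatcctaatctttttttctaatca
Lefty2, 26.1 kb upstream (exon of Sde2), chr1:180866920-180867162: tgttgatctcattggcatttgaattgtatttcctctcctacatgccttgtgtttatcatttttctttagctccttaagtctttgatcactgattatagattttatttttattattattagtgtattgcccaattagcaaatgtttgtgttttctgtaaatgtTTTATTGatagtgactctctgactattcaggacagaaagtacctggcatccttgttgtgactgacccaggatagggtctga
Lefty1, 4.70 kb downstream of the start (intergenic), chr1:180939603-180939842: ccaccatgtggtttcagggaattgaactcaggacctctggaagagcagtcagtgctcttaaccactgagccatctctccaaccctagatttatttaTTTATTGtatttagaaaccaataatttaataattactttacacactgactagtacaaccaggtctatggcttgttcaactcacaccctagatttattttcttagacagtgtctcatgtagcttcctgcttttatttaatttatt
Nodal, 0.29 kb upstream (promoter), chr10:61417530-61417829: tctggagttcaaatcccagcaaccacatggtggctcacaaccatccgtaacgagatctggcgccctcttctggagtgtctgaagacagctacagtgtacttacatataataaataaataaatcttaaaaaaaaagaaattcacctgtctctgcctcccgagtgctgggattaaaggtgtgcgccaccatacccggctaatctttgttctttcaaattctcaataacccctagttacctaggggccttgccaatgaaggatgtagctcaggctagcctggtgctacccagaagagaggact

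In GRCm38 the members lie at chr10:61417972-61425338 (Nodal, plus strand), chr9:110939603-110946158 (Tdgf1, minus), chr1:180935022-180938400 (Lefty1, plus), chr1:180893108-180899103 (Lefty2, plus), chr18:75367529-75395935 (Smad7, plus), chr14:46383520-46390669 (Bmp4, minus), chr2:172868012-172940321 (Bmp7, minus), chr2:152736251-152737410 (Id1, plus), chr12:25093799-25097140 (Id2, minus) and chr4:136143497-136145755 (Id3, plus). The motif was found in the central 300 bases of 5 of the 15 member peaks (33.3%), against 54.8% of all 91665 Cdx2 peaks and 14.3% of the 122350 ATAC peaks. The windows at Id2, Bmp4 and the Nodal promoter shown above held no match to these letters, those at Id3, Lefty1 and Lefty2 held 1 each, and the other 2 peaks with a match lay near Smad7. Of the members, Nodal, Tdgf1, Bmp4, Id2 and Id3 matched RefSeq promoters (GRCm38.p6, 250 bases before to 50 after the start). None of these 5 promoters held the motif, which was present in 10.9% of 32851 promoters.

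The largest difference in chromatin near a member was at Id2. An ATAC peak 17.9 kb upstream of Id2 (chr12:25114418-25115696) held 16 reads in WT and 231 in mCdx2-OE, a log2 difference of 3.35 after scaling to equal totals. It overlapped the Cdx2 peak printed above, which had 47 reads for mCdx2 and 49 for rCdx2. Of the 11 ATAC peaks near Id2, this was the one past 2-fold with at least 40 scaled reads, and another 25.9 kb downstream, with 15 and 7 reads (log2 −1.40), was under that minimum. A further Cdx2 peak 29.5 kb downstream (57 and 61 reads) was also called in RMES cells.

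Near Bmp4, the ATAC peak 8.01 kb upstream rose from 38 to 118 reads (log2 1.18) and overlapped the Cdx2 peak with 28 and 26 reads. Scaled to equal totals, that Cdx2 peak had 26.5 and 27.6 reads, below the medians of 43.5 (mCdx2) and 44.5 (rCdx2) over all mESC Cdx2 peaks. The printed peaks at Lefty1, Lefty2 and the Nodal promoter, and the Cdx2 peak in the Smad7 intron described below, also lay under these medians. The Cdx2 peak with most reads near any member lay 22.2 kb upstream of Bmp4 (chr14:46412460-46413211; 99 reads for mCdx2 and 91 for rCdx2), at an ATAC peak that did not pass 2-fold. Near Id3, Cdx2 peaks lay 3.49 kb (55 and 54 reads) and 6.30 kb (35 and 22 reads) downstream of the start. The ATAC peaks more open near Id3 were at other places, 26.4 kb upstream (10 to 68 reads) and 20.2 kb downstream (11 to 46 reads). Id1 and Bmp7 had no Cdx2 peak within 30 kb.

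Near Tdgf1, 6 of 11 ATAC peaks were less open in mCdx2-OE. The widest, centred 1.08 kb upstream, went from 550 to 316 reads (log2 −1.23), and the one 6.67 kb upstream in an intron of Lrrc2 from 53 to 15 (log2 −2.18). Near Smad7, 9 of 23 ATAC peaks were less open, and 1 in its intron, 19.0 kb from the start, was more open (36 to 109 reads, log2 1.14) at a Cdx2 peak with 24 and 27 reads. Near Nodal 5 of 15 ATAC peaks were less open, and the Cdx2 peak at its promoter had 34 and 37 reads. The Cdx2 peak 4.17 kb upstream of Lefty2 had 28 reads for mCdx2 and 52 for rCdx2, a log2 difference of 1.03 after scaling, and 0.912% of all mESC Cdx2 peaks were 2-fold apart between the proteins.

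Over all members, 127 ATAC peaks lay within 30 kb, of which 8 were more open and 31 less open, with those shared by the neighbouring Lefty1 and Lefty2 counted once. A peak was called at 2-fold and at least 40 scaled reads, which 9.56% of all ATAC peaks passed as more open and 14.3% as less open. The split was 10 and 13 without scaling and 10 and 22 with median-of-ratios scaling, which moved the median log2 difference of all ATAC peaks from −0.14 to 0.28 and to 0.01. A Cdx2 peak in mESCs lay near 8 of 10 members, against 76.7% of 15817 genes, and a Cdx2 peak in RMES cells near 4 of 10, against 65.3%. More open ATAC peaks lay near 7 members, against 36.6% of genes, and less open ones near 6, against 50.8%. Here Lefty1 and Lefty2 count separately, although their only more open peak is the same one, with 9 reads in WT and 37 in mCdx2-OE. With 1 library per condition these counts have no replicate check and no test.

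**Figure D1:**
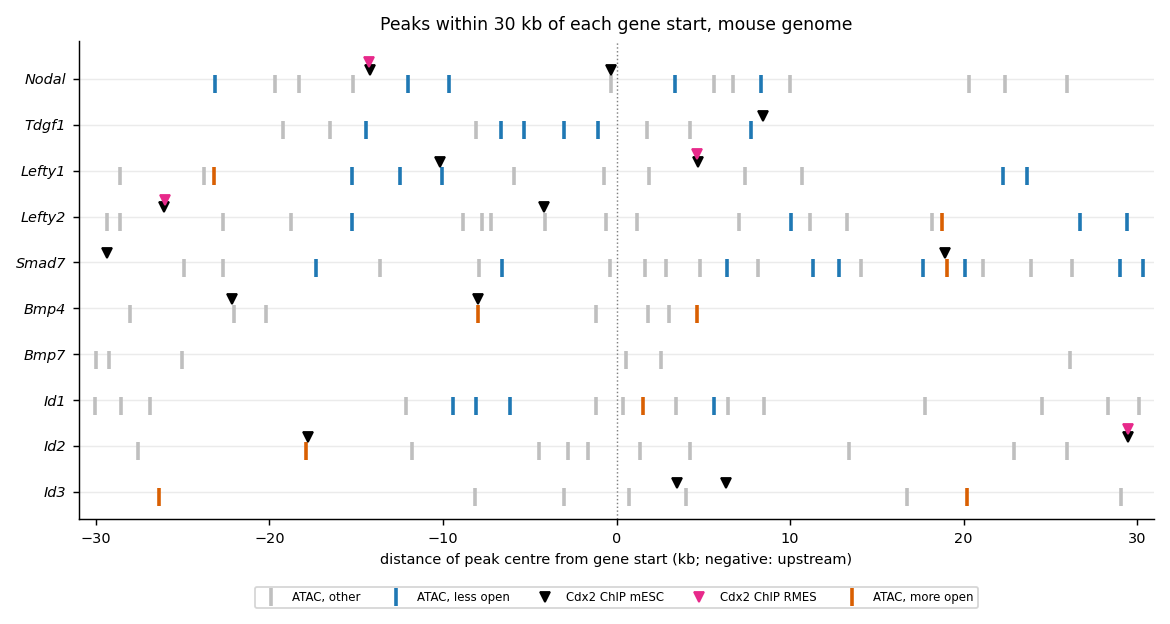
Peaks within 30 kb of the start of each member on the mouse genome; the horizontal axis is the distance of the peak centre from the gene start in kb, bars are ATAC peaks (orange more open and blue less open in mCdx2-OE, grey others) and triangles are Cdx2 ChIP peaks (black mESC, pink RMES). Blue bars gather around Tdgf1 and Smad7, and orange bars coincide with black triangles at Id2, Bmp4 and Smad7.

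The first comparison of transcripts asked what Cdx2 induction did to the members in mESCs. Over the 9 constructs together, 1 of 10 members rose and 3 fell past an adjusted p of 0.05 and a 2-fold change by edgeR (quasi-likelihood F test, p-values adjusted after Benjamini and Hochberg), against 13.2% of the 16000 genes tested that rose and 13.5% that fell. The median log2 fold change was −0.43 over members and −0.02 over all genes tested. In WT, levels per kb of transcript ranged from 0.814 CPM per kb for Id2 and 1.47 for Bmp7, through 7.81 for Bmp4, 8.65 for Id1, 13.8 for Smad7, 17.5 for Lefty1, 23.6 for Lefty2, 26.8 for Id3 and 31.2 for Nodal, to 263 for Tdgf1. The SD over the 2 WT libraries was at most 1.91 CPM per kb, and the libraries of neighbours in this order did not overlap.

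Among the Id genes, Id2 and the other members moved in opposite directions. Id2 was at 2.04 and 1.93 CPM in WT and at 27.7 to 59.7 CPM (median 43.0) in the 18 induced libraries, so that every induced library lay above WT. Its log2 fold change was 4.36 ± 0.14 (SE, adjusted p = 1.4e-13). Id3 was at 47.1 and 49.1 CPM in WT and at 1.65 to 16.3 CPM (median 8.19) in induced libraries, a log2 fold change of −2.98 ± 0.08 (SE, adjusted p = 2.4e-14). Id1 was at 9.77 and 10.3 CPM in WT and at 1.51 to 9.31 CPM (median 3.66) in induced libraries, with a log2 fold change of −1.50 ± 0.14 (SE, adjusted p = 7.8e-08). All 18 induced libraries were below both WT libraries for Id3 and for Id1, but the highest Id1 value, in an rCdx2-OE library, was close to WT.

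Among the ligands, Bmp4 had the largest fall. It was at 17.0 and 18.1 CPM in WT and at 0.618 to 4.15 CPM (median 1.55) in induced libraries, with a log2 fold change of −3.50 ± 0.13 (SE, adjusted p = 1.2e-12). Bmp7, a related Bmp ligand, was at 6.15 and 5.69 CPM in WT and at 3.77 to 11.2 CPM in induced libraries. Its log2 fold change of 0.34 ± 0.09 (SE, adjusted p = 0.0038) stayed under 2-fold, with 12 induced libraries above WT and 5 below. Nodal was at 65.7 and 65.2 CPM in WT and at 45.2 to 62.4 CPM in induced libraries. All 18 lay below WT, yet the log2 fold change was −0.32 ± 0.08 (SE, adjusted p = 0.0021), under the 2-fold threshold.

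The Nodal co-receptor and inhibitors differed by less than 2-fold over the 9 constructs. Tdgf1 was at 669 and 676 CPM in WT and at 261 to 673 CPM in induced libraries, a log2 difference of −0.50 ± 0.07 (SE). Lefty1 was at 31.2 and 30.3 CPM in WT and at 10.0 to 23.7 CPM in induced libraries, a log2 difference of −0.85 ± 0.07 (SE). Lefty2 was at 60.9 and 62.1 CPM in WT and at 21.4 to 86.6 CPM in induced libraries, with 12 of them below and 6 above WT. Smad7 was at 62.9 and 61.5 CPM in WT and at 43.9 to 73.3 CPM in induced libraries, a log2 difference of −0.12 ± 0.08 (SE, adjusted p = 0.17).

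**Figure D2:**
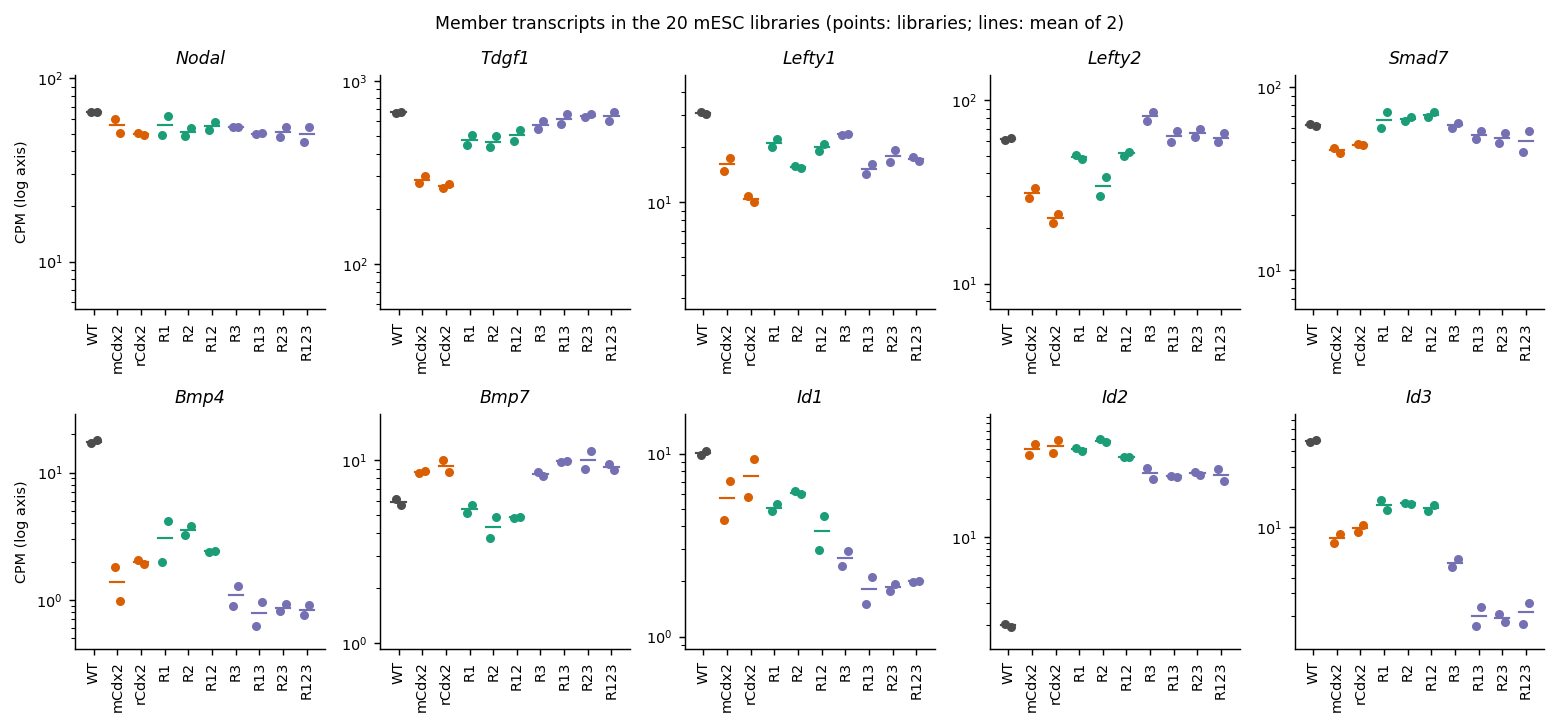
CPM (log axis) of each member in the 20 mESC libraries, with 1 point per library and a line at the mean of 2; grey is WT, orange mCdx2-OE and rCdx2-OE, green mutants without change 3 and purple mutants with change 3. Id2 is above WT in all 18 induced libraries, and Id3 falls from 47.1 and 49.1 CPM in WT to at most 5.59 CPM in the mutants with change 3. In mCdx2-OE, which carries the same residues as R123 at the 3 changed positions, Id3 is at 7.53 and 8.85 CPM.

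The next comparison asked whether mouse and rat Cdx2 differed. In mCdx2-OE alone, Id2 rose (log2 4.65) and Bmp4 (log2 −3.59), Id3 (−2.56) and Tdgf1 (−1.22) fell past 2-fold against WT. In rCdx2-OE alone, Id2 rose (4.73) and Bmp4 (−3.14), Id3 (−2.30), Lefty1 (−1.55), Lefty2 (−1.44) and Tdgf1 (−1.33) fell. These contrasts share the WT libraries, and 33.4% of all genes tested (18.4% higher and 15.0% lower) passed the first and 34.5% (19.0% and 15.4%) the second. The count of falls in mCdx2-OE rested on a threshold that several members lay near, since without replicate 2 of mCdx2-OE Lefty1 (−1.05), Lefty2 (−1.07) and Id1 (−1.21) also passed, which made 6 falls in place of 3.

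Set directly against each other, mCdx2-OE and rCdx2-OE differed in no member by edgeR's adjusted p, and in 3 of 16000 genes (0.0187%; 0.00625% higher and 0.0125% lower in mCdx2-OE). At an unadjusted p under 0.05, Lefty1 and Lefty2 and 857 of all genes (5.36%) differed, and DESeq2's test called 21 genes, Lefty1 among them. Lefty1, the Nodal inhibitor, was at 14.9 and 17.4 CPM in mCdx2-OE and at 10.9 and 10.0 CPM in rCdx2-OE. Its log2 difference, mCdx2 minus rCdx2, was 0.61, with a 95% interval of 0.35 to 0.87 and an adjusted p of 0.13. For Lefty2 the log2 difference was 0.47 (95% interval 0.20 to 0.74, adjusted p = 0.37). With the replicate number as a block, set separately for the mutants and for these 2 lines in a fit added after the data were seen, Lefty1 (0.60, adjusted p = 0.0048) and Lefty2 (0.46, adjusted p = 0.0036) passed edgeR's test, as did 149 genes in place of 3. The Cdx2 transcript was among them, higher in mCdx2-OE (log2 0.69). With 1 shared block for all conditions, no member and 1 gene passed. That the numbers pair these 2 lines rests on 1 correlation. For Bmp4 the interval of the log2 difference ran from −1.17 to 0.27 and for Id1 from −0.93 to 0.15, so the data bound those differences only loosely. Intervals were narrower for Id2 (−0.36 to 0.21), Nodal (−0.11 to 0.41) and Tdgf1 (−0.11 to 0.33).

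The 7 mutants were then compared with WT and with the intact proteins. Against WT, 27 of 70 pairs of member and mutant were called, 7 of them higher and 20 lower, against 25.9% of all pairs of gene and mutant. The 7 rises were Id2 in each mutant, and Bmp4 and Id3 fell in each. Against mCdx2-OE and rCdx2-OE together, 8 of 10 members differed by adjusted p, with no fold threshold, but so did 64.0% of all genes tested (30.6% higher and 33.4% lower). Lefty2 (log2 1.09 ± 0.07, SE), Tdgf1 (1.0 ± 0.06), Lefty1 (0.51 ± 0.07) and Smad7 (0.37 ± 0.07) were higher in the mutants. Id1 (−1.09 ± 0.14), Id3 (−0.71 ± 0.09), Id2 (−0.42 ± 0.07) and Bmp7 (−0.35 ± 0.08) were lower. Thus the members of the Nodal branch that differed were higher in the mutants, and all 3 Id genes were lower. This did not extend to the wider Nodal and TGF-beta branch, whose further genes are described below. Of 27 such genes tested, 13 passed the adjusted p on the lower side and 6 on the higher side (median −0.15, beside −0.01 over all genes). Among 23 further genes of the Bmp branch, 11 passed as lower and 3 as higher, Id4 among the latter (median −0.24). Trophoblast stem cell markers other than Cdx2 summed to 560 to 766 CPM in mCdx2-OE and rCdx2-OE and to 158 to 287 CPM in the mutants, embryonic stem cell markers to 3067 to 3408 and 3803 to 4749 CPM, and their part in these differences was not tested. Whether the mutants were induced or sequenced together with the intact lines is not given in the sources used here, so a batch and the mutation cannot be told apart in this contrast.

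A joint test asked for any difference among the 9 constructs. It called 9 of 10 members, all but Nodal (adjusted p = 0.73), against 56.9% of genes tested. The smallest adjusted p among members was that of Id3 (4.9e-10).

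The additive model of the 3 amino acid changes over the 16 rat-derived libraries asked which of the changes went with these differences. Change 3 was linked to 7 of 10 members by adjusted p, against 36.6% of 15114 genes tested, with 3 members higher (18.2% of genes) and 4 lower (18.4%). Changes 1 and 2 were linked to no member and to no gene in edgeR's test. At an unadjusted p under 0.05, change 1 gave 3 members (Id1, Id2 and Tdgf1) and 13.2% of genes, and change 2 gave 1 member (Tdgf1) and 10.4% of genes. DESeq2's test called 22 genes for change 1 and 1 gene for change 2. In a fit of the 14 mutant libraries with the replicate number as a block, added after the data were seen, 66 genes were called for change 1 and 228 for change 2, again with no member among them, and 8601 for change 3 in place of 5535.

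With change 3, the Id genes and Bmp4 were lower. Id3 was at 1.65 to 5.59 CPM (median 2.20) in the 8 libraries with the change and at 9.23 to 16.3 CPM (median 14.4) in the 8 without it, a log2 difference of −2.32 ± 0.24 (SE, adjusted p = 3.2e-06). Bmp4 was at 0.618 to 1.29 CPM (median 0.907) with and 1.91 to 4.15 CPM (median 2.41) without the change, a log2 difference of −1.60 ± 0.21 (SE). Id1 was at 1.51 to 2.94 CPM with and 2.97 to 9.31 CPM without it (−1.40 ± 0.15). Id2 was at 27.7 to 35.4 CPM with and 42.9 to 59.7 CPM without it (−0.70 ± 0.07). For each of these 4 genes the groups did not overlap, with or without rCdx2-OE. Over all genes this was counted only against the 6 mutant libraries without the change, where 20.6% of genes tested had groups apart.

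Lefty2 and Tdgf1 were higher with change 3. Lefty2 was at 59.0 to 86.6 CPM with and 21.4 to 52.6 CPM without it (log2 0.85 ± 0.16, SE), and Tdgf1 at 543 to 673 CPM with and 261 to 541 CPM without it (0.56 ± 0.10). Bmp7 was at 8.17 to 11.2 CPM with the change and at 3.77 to 5.73 CPM in the 6 mutant libraries without it, but at 8.65 and 10.0 CPM in rCdx2-OE, which also lacks the change (0.67 ± 0.16). Groups that do not overlap, with change 3 against the mutants without it, were also seen for 20.6% of all genes tested. Lefty1 (0.16 ± 0.16), Nodal (−0.05 ± 0.06) and Smad7 (−0.19 ± 0.10) did not pass the test. Smad7 passed when 1 rCdx2-OE library was left out, at −0.25 without replicate 1 and −0.24 without replicate 2, and at −0.34 in a fit of the mutants alone that was added after the data were seen (−0.33 with the replicate block). In that fit Lefty1 was at −0.09, with or without the block, against 0.16 with rCdx2-OE. Without the block, Lefty2 (0.59) and Tdgf1 (0.39) were smaller in the mutants alone. Bmp7 (0.95), Bmp4 (−1.86) and Id3 (−2.61) were larger in size there, and Id1 (−1.37) and Id2 (−0.71) were close to the values above.

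The Cdx2 transcript itself was lower with change 3, at 37.2 to 94.4 CPM against 60.6 to 147 CPM without it (log2 −0.74 ± 0.26, SE, adjusted p = 0.037), and these groups overlapped. In each of the 7 mutants Cdx2 was higher in replicate 1 than in replicate 2, however, and among the mutants the groups did not overlap within a replicate number. In replicate 1 Cdx2 was at 62.0 to 94.4 CPM in mutants with change 3 and at 145 to 147 CPM in those without it, and in replicate 2 at 37.2 to 44.3 and at 60.6 to 68.8 CPM. With the block set separately for mutants and intact lines the difference was −0.72 ± 0.12 (SE, adjusted p = 2.8e-04), and in the mutants alone with the block −0.90 ± 0.05 (SE, adjusted p = 1.9e-15). Among the mutants, within a replicate number, lower Cdx2 went together with change 3 in the same libraries as lower Id3, Bmp4, Id1 and Id2. Mean Cdx2 was at 68.7 CPM in rCdx2-OE and 69.4 CPM in R3. The single libraries were at 70.4 and 67.0 CPM in rCdx2-OE and at 94.4 and 44.3 CPM in R3. Means in rCdx2-OE and R3 were 9.86 and 5.21 CPM for Id3, 1.97 and 1.10 for Bmp4, 7.54 and 2.68 for Id1, and 52.9 and 32.2 for Id2. The replicate numbers do not pair these lines, of which 1 is intact and 1 a mutant. The part of the Cdx2 level in the differences was not tested. Feeder markers were at 1.28 to 2.42 CPM in the mutants without change 3 and at 1.65 to 3.87 CPM with it. Trophoblast stem cell markers other than Cdx2 were at 213 to 287 CPM in mutants without and at 158 to 181 CPM in mutants with change 3, and primed epiblast markers at 200 to 255 CPM without and 110 to 152 CPM with it. Of the primed epiblast markers, Dnmt3b was called lower and Otx2 higher with change 3. The part of these cell states was not tested.

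Within the libraries with change 3, Id3 was at 4.83 and 5.59 CPM in rCdx2_R3 and at 1.65 to 2.55 CPM in R13, R23 and R123. The values do not overlap, but this difference was seen in the data first and not tested. The R123 mutant and mouse Cdx2 carry the same residues at the 3 positions, and their direct comparison was added after the data were seen. Lefty2 (log2 1.0, R123 minus mCdx2) and Tdgf1 (1.15) were higher and Id3 (−1.92), Id1 (−1.48) and Id2 (−0.67) lower in R123, 5 of 10 members against 42.4% of genes (20.1% higher and 22.3% lower). Id3 was at 1.72 and 2.55 CPM in R123 and at 7.53 and 8.85 CPM in mCdx2-OE. The Cdx2 transcript had means of 50.5 CPM in R123 and 113 CPM in mCdx2-OE (log2 −1.16, edgeR adjusted p = 0.072). The part of this level was not tested. This contrast also crosses the mutant and intact lines, so a batch cannot be told apart from the proteins.

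**Figure D3:**
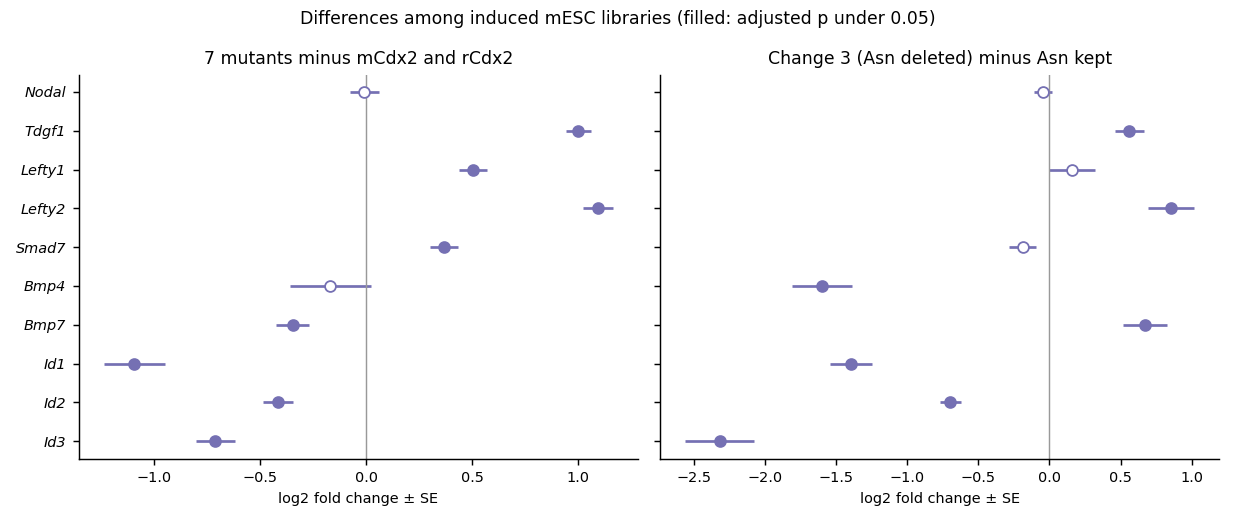
Log2 fold changes ± SE of the members among induced mESC libraries, for the 7 mutants minus mCdx2-OE and rCdx2-OE (left, 18 libraries) and for change 3 in the additive model (right, 16 libraries); filled points have an adjusted p under 0.05. In the right panel Id3, Bmp4, Id1 and Id2 lie below 0 and Lefty2, Bmp7 and Tdgf1 above it.

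RMES cells were used to ask how the mouse and rat copies of the members responded in the same cells. The WT and induced RMES libraries differed in more than the transgene. Mitochondrially encoded transcripts made up 2.32% and 2.65% of mouse counts and 0.00592% and 0.00775% of rat counts in WT, but 14.3% and 13.9% of rat counts and 0.0313% and 0.0259% of mouse counts in mCdx2-OE and rCdx2-OE. Cdx2 was present in WT RMES cells, at 129 and 127 CPM on the mouse and 453 and 440 CPM on the rat allele. It was at 968 CPM (mouse) and 47.2 CPM (rat) in mCdx2-OE, and at 4.45 CPM (mouse) and 880 CPM (rat) in rCdx2-OE. The induced group thus joins 1 library of each protein. Embryonic stem cell markers went from 6719 to 6757 CPM in WT to 2662 to 2708 CPM after induction on the mouse allele and from 4494 to 4564 to 1553 to 1657 CPM on the rat allele, and trophoblast stem cell markers from 172.5 to 181.2 to 882.1 to 1022 CPM and from 302.5 to 320.9 to 968.8 to 1071 CPM. Feeder fibroblast markers summed to 22.4 to 27.2 CPM in WT and 7.87 to 10.8 CPM after induction on the mouse allele. On the rat allele they summed to 20.6 to 26.7 and to 23.6 to 29.9 CPM. Among them, Thy1 was called higher and Col3a1 lower on both alleles. Col1a1 and Col1a2 were also lower on the mouse allele, and Postn on the rat allele. The part of these differences in the results was not tested. Leaving out mitochondrial genes, an alternative added after the data were seen, left the member calls on each allele as they were.

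On the mouse allele, 2 of 10 members rose and 6 fell past 2-fold, against 28.3% and 16.1% of 16887 genes tested. On the rat allele, 2 rose and 5 fell, against 28.3% and 14.2% of 14627 genes tested. In both directions together, 44.5% of genes passed on the mouse and 42.5% on the rat allele, so 8 and 7 of 10 members stand beside a high background. Bmp4 fell on both alleles, from 50.0 and 48.6 to 3.03 and 3.40 CPM on the mouse allele (log2 −3.94 ± 0.10, SE) and from 161 and 161 to 23.6 and 22.5 CPM on the rat allele (−2.80 ± 0.06). In these and the following pairs the first values are the WT libraries, and the second are mCdx2-OE and rCdx2-OE. Id3 also fell on both alleles, from 140 and 139 to 50.6 and 31.3 CPM on the mouse allele (−1.77 ± 0.15) and from 136 and 132 to 35.8 and 21.9 CPM on the rat allele (−2.22 ± 0.14).

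Id1 moved in opposite directions. It was at 19.0 and 17.7 CPM in WT and 13.5 and 14.5 CPM after induction on the mouse allele (log2 −0.39 ± 0.10, under 2-fold), but rose from 10.2 and 8.41 to 32.7 and 33.3 CPM on the rat allele (1.83 ± 0.10). The allele difference in induction, mouse minus rat, was −2.25 ± 0.12 (SE, adjusted p = 2.0e-13). Id2 rose on both alleles, from 2.44 and 2.01 to 103 and 83.9 CPM on the mouse allele (5.40 ± 0.13) and from 3.547 and 3.503 to 13.7 and 9.51 CPM on the rat allele (1.72 ± 0.18). The allele difference for Id2 was 3.66 ± 0.19 (SE, adjusted p = 6.6e-14), in favour of the mouse allele.

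The co-receptor Tdgf1 and the receptor inhibitor Smad7 fell on both alleles. Tdgf1 went from 750 and 807 to 297 and 284 CPM on the mouse allele and from 354 and 373 to 165 and 151 CPM on the rat allele. Smad7 went from 224 and 221 to 55.0 and 46.4 CPM on the mouse allele (log2 −2.13 ± 0.07) and from 258 in both WT libraries to 65.6 and 63.1 CPM on the rat allele (−2.00 ± 0.06). Nodal itself was at 19.1 and 18.9 CPM in WT and 21.0 and 19.3 CPM after induction on the mouse allele (0.09 ± 0.09, adjusted p = 0.37). On the rat allele Nodal was at 56.1 and 53.4 CPM in WT and 37.1 and 37.9 CPM after induction (−0.55 ± 0.07, under 2-fold). Bmp7 rose past 2-fold on the mouse allele, from 4.63 and 4.41 to 13.1 and 12.8 CPM, and was at 13.1 and 12.0 CPM in WT and 19.97 and 19.8 CPM after induction on the rat allele, under 2-fold.

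The Lefty genes were expressed from different symbols on the alleles. On the mouse allele Lefty2 fell from 171 and 169 to 3.48 and 2.94 CPM (log2 −5.72 ± 0.08) and Lefty1 from 6.78 and 5.83 to 1.43 and 1.29 CPM (−2.21 ± 0.20). On the rat allele Lefty1 fell from 473 and 470 to 59.5 and 37.8 CPM (−3.28 ± 0.14), and Lefty2 was at 1.46 and 0.934 CPM in WT and 2.00 and 1.07 CPM after induction (adjusted p = 0.34). Lefty1 held 3.82% and 3.34% of the summed Lefty1 and Lefty2 level in WT on the mouse allele but 99.7% and 99.8% on the rat allele, against 33.8% and 32.8% in WT mESCs. The 2 genes are close paralogs, mouse and rat genes were paired by symbol only, and reads shared between them may be counted for either, so the separate allele differences for Lefty1 and Lefty2 are uncertain. The sum of both, a quantity added after the data were seen, fell on both alleles, with log2 fold changes of −5.27 ± 0.08 (mouse) and −3.24 ± 0.14 (rat).

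**Figure D4:**
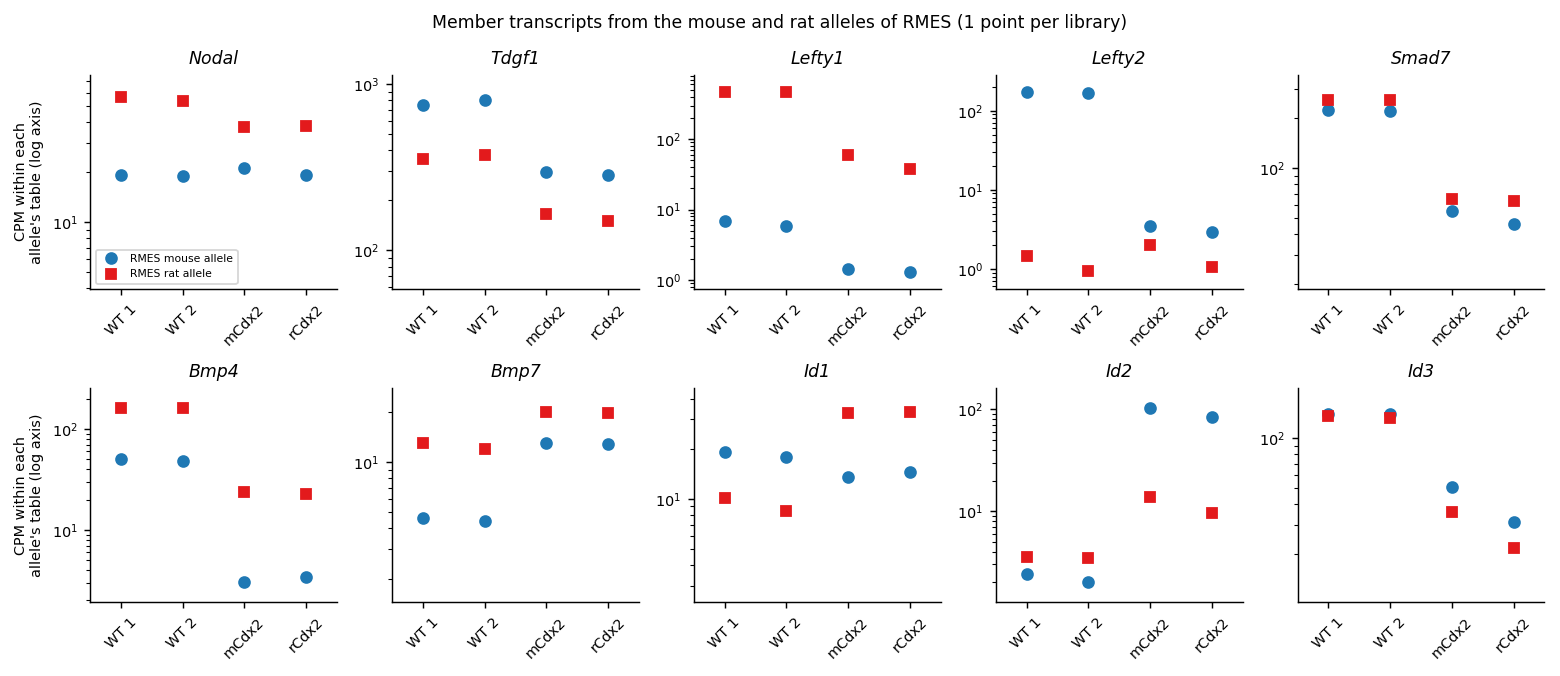
CPM (log axis, scaled within each allele's table) of each member on the mouse allele (blue circles) and rat allele (red squares) in the 4 RMES libraries. Id1 rises on the rat allele from 10.2 and 8.41 to 32.7 and 33.3 CPM while the mouse allele goes from 19.0 and 17.7 to 13.5 and 14.5 CPM, and Lefty1 and Lefty2 trade places between the alleles.

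All 10 members passed the test of a different response on the alleles, 5 with a positive and 5 with a negative difference, mouse minus rat, against 62.1% of 13605 genes tested (30.3% positive and 31.8% negative), and the smallest difference was that of Smad7 at −0.16 ± 0.06 (SE, adjusted p = 0.021). The Smad7 difference was −0.06 without rCdx2-OE and −0.27 without mCdx2-OE. It did not pass without rCdx2-OE or without either WT library (−0.14 in both cases), nor in DESeq2's test. Induction on the RMES mouse allele was also set against induction by the same proteins in mESCs. Of the 10 members, 8 differed in induction, 4 in each direction, against 53.2% of 17912 genes tested (27.5% positive and 25.7% negative). Lefty2 (log2 −4.57, RMES mouse allele minus mESC) and Smad7 (−1.76) had the largest differences. In tables scaled separately, Lefty2 was at 60.9 and 62.1 CPM in WT mESCs and at 171 and 169 CPM on the mouse allele of WT RMES cells, and Smad7 at 62.9 and 61.5 and at 224 and 221 CPM. The calls for Lefty2, Smad7 and Bmp7 (0.88) held in each fit that left out 1 library, and those for Lefty1, Id2, Id3, Nodal and Bmp4 did not. Tdgf1 (−0.19 ± 0.10, SE) and Id1 (0.21 ± 0.29) did not pass this test.

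**Figure D5:**
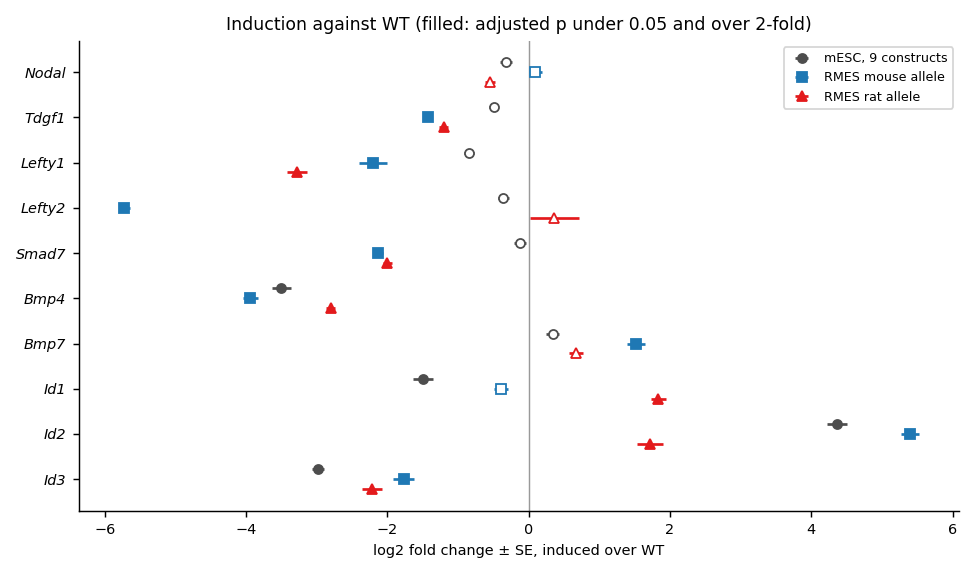
Log2 fold changes ± SE of induced over WT cells for the 9 constructs in mESCs (grey circles), the RMES mouse allele (blue squares) and the RMES rat allele (red triangles); filled symbols passed an adjusted p of 0.05 and 2-fold. Bmp4, Id3 and Id2 are filled in all 3 settings, and Id1 lies on opposite sides of 0 in mESCs and on the rat allele.

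Other genes of the pathways were followed in lists. Of 30 further genes of the Nodal and TGF-beta branch, 27 were tested in mESCs, and 7 rose and 2 fell over the 9 constructs, against 13.2% and 13.5% of all genes tested, with a median log2 fold change of 0.31 beside −0.02 over all genes. The rises included the receptors Tgfbr2, from 0.865 and 0.914 CPM in WT to 2.71 to 4.89 CPM in induced libraries (log2 2.08), Tgfbr3 (1.84), and Acvr2a, from 10.4 and 10.3 to 18.7 to 27.7 CPM (1.15). Inhbb, a subunit of activin, fell from 11.2 and 11.1 to 2.04 to 7.15 CPM (−1.47). Of 27 further genes of the Bmp branch, 23 were tested, and 5 rose and none fell, with a median of 0.64. The Bmp receptor Bmpr2 rose from 19.4 and 20.4 CPM to 46.7 to 118 CPM (1.84). Of 8 partners of Id proteins and related helix-loop-helix genes, 7 were tested, and 2 rose and none fell. The E protein gene Tcf12 rose from 40.9 and 44.5 to 69.8 to 101 CPM (1.01).

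On the RMES mouse allele, 3 of 25 tested genes of the Nodal list rose and 2 fell, against 28.3% and 16.1% of all genes tested, with a median log2 fold change of −0.36 beside 0.08 over all genes. Fst, an inhibitor of activin, fell from 54.8 and 57.6 to 2.51 and 2.79 CPM (log2 −4.41), and the ligand Gdf3 fell (−1.67), whereas Tgfb1 (2.49), Tgfb2 (2.39) and Smad3 (1.83) rose. Of 24 tested genes of the Bmp list, 8 rose and 3 fell (median 0.73). The Bmp inhibitor Chrd rose (3.52, from 0.308 and 0.613 CPM in WT), as did Bmp8b (2.20) and Msx2 (1.34). Bambi, a pseudoreceptor (−1.82), and Id4, another Id gene (−1.78), fell. Among the Id partners, Hand1 (5.88) and Ascl2 (2.05), factors of the trophoblast, rose and Hes1 (−2.12) fell. Hand1 was at 0.185 and 0.0279 CPM in WT and at 6.17 to 6.31 CPM after induction, so its fold starts near the floor. On the rat allele, 8 of 25 genes of the Nodal list rose and 4 fell, and 8 of 21 of the Bmp list rose and 1 fell, against 28.3% and 14.2% of all genes tested, with medians of 0.29 and 0.60 beside 0.07 over all genes. With change 3 in mESCs, 3 genes of the Nodal list were higher and 6 lower of 26 tested, and 5 of the Bmp list higher and 7 lower of 23, against 18.2% and 18.4% of all genes tested, with medians of −0.05 and −0.10 beside −0.01 over all genes.

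The genes whose log2 fold changes over the 9 constructs lay nearest to those of a member were sought among the 11898 genes that averaged 50 or more counts per library. For Nodal they were Ppp2r1b, Rmdn3 and Dedd, with root mean square differences of 0.0516, 0.0541 and 0.0609. For Bmp4 they were Nlrc4, P2ry2 and Ina, at 0.527, 0.558 and 0.562. For Id1 they were Mest, Icosl and Kifc3, at 0.251, 0.265 and 0.283.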

How the data were processed

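RNA-seq libraries were made from polyadenylated RNA and read in pairs with strand kept. Per the paper's methods and the labels, the authors aligned reads with STAR 2.7.0d and counted them per gene by strand with featureCounts; the counts of replicate 2 in mESCs came from a separate run with stricter pairing options. RMES read pairs were assigned to mm10 or rn6 by edit distance before counting, and how reads equal in both genomes were treated is not given in the sources used here. The authors trimmed ATAC-seq reads with Fastp and removed duplicates with Sambamba, and for ChIP-seq used cutadapt 2.6 and Picard 2.6.0. In both assays they aligned with Bowtie2 2.3.4.3, called peaks on merged reads with MACS2 and deposited read counts per peak. One ChIP-seq library is described under the other protein's name in the labels, and the RMES ChIP columns were assigned by their abbreviations, so which ChIP column is mouse and which is rat Cdx2 is less sure there.

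From the deposited counts, edgeR 4.0.16 (R 4.3.3) was fitted across all genes that passed filterByExpr, with TMM scaling, quasi-likelihood tests and Benjamini-Hochberg adjustment. Genes were called at an adjusted p of 0.05, and against WT also at 2-fold. Standard errors were derived from the fold change and its F statistic. The allele comparison had each library as a block. Peaks were assigned within 30 kb of gene starts in the mouse annotation of GRCm38, scaled to equal totals, with a pseudocount of 1. Total reads in peaks were 6109353 and 8277850 (ATAC-seq) and 5550846 to 6223794 (mESC ChIP-seq). Genes other than members were named by size of change, at most 3 per direction and list, among those with a mean of at least 50 counts. No libraries were identical. Same-numbered deviations from the condition means correlated at 0.35 to 0.57 in all 21 pairs of the 7 mutants, so the replicate numbers pair the mutants, by the data and not by the labels, and at 0.77 between mCdx2-OE and rCdx2-OE, but below 0 in the 23 pairs between these sets or with WT. Fits with the block set separately for each set were therefore added after the data were seen. Tested on simulated data, a log2 change of 1 was recovered for 100% of 200 changed genes over the 9 constructs, 99.5% for change 3, 98.5% for the RMES mouse allele and 85% for the allele comparison, and a log2 change of 0.5 for 84.5%, 93.5%, 31% and 3%. The simulation gave every gene the same spread, changed only genes averaging at least 50 counts and drew the alleles independently. These rates check the fits and do not measure their power in the real data. Members and lists were chosen with earlier results of these data known. Alternatives were DESeq2 1.42.0, its size factors, no filter, no fold threshold, a replicate block and leaving out each library.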

Additional observations from a re-analysis of the deposited data

Results flagged for a closer look

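Induction differed between the alleles of RMES cells for all 10 members, by the interaction of allele and induction in edgeR with Benjamini-Hochberg adjustment, against 62.1% of all genes tested. The log2 differences, mouse minus rat, were −6.11 for Lefty2, 1.06 for Lefty1, −2.25 for Id1, 3.66 for Id2, −1.16 for Bmp4, 0.83 for Bmp7, 0.61 for Nodal, 0.43 for Id3, −0.24 for Tdgf1 and −0.16 for Smad7. The separate values for Lefty1 and Lefty2 are uncertain, and the Smad7 call was lost in some of the other fits. With Lefty1 and Lefty2 summed the difference was −2.04 ± 0.08 (SE).

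Induction differed between the RMES mouse allele and mESCs for 8 members by the same kind of test, against 53.2% of genes. The log2 differences, RMES minus mESC, were −4.57 for Lefty2, −1.76 for Smad7, −1.04 for Lefty1, 0.88 for Bmp7, 0.67 for Id2, −0.63 for Bmp4, 0.62 for Id3 and 0.36 for Nodal. For Id3 the difference was 0.24 without the RMES mCdx2-OE library and 0.93 without the RMES rCdx2-OE library.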

How the results depend on the processing

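Without the fold threshold, 2 members rose and 7 fell over the 9 constructs, 2 rose and 7 fell in mCdx2-OE, 2 rose in rCdx2-OE, and 12 pairs of member and mutant rose and 41 fell; genes called went from 4279 to 11959 (9 constructs), 5339 to 11158 (mCdx2-OE), 5513 to 11294 (rCdx2-OE), 29013 to 71324 (mutants), 7508 to 13823 (RMES mouse allele) and 6218 to 12069 (RMES rat allele). DESeq2's test called 1 member and 21 genes between mCdx2-OE and rCdx2-OE, where edgeR called 0 members and 3 genes (1 without the filter), and 2 members higher in the cell line comparison in place of 4; it called 22 genes for change 1 and 1 for change 2. For change 1, edgeR called 1 gene without the filter and 4 in the mutants alone, a fit added after seeing the data. Leaving out 1 library at a time gave 3 to 6 members lower in mCdx2-OE, 1 to 4 higher and 2 to 4 lower in the cell line comparison, 4 to 5 lower on the mouse against the rat allele, 0 to 1 genes between mCdx2-OE and rCdx2-OE and 0 to 2 genes for change 1. Signs changed only for values that did not pass the test. Leaving out 1 library, these were Bmp7 (−0.21 to 0.0011) and Id2 (−0.24 to 0.094) between mCdx2-OE and rCdx2-OE, Nodal (−0.0625 to 0.068) and Bmp4 (−0.32 to 0.12) between mutants and intact proteins, and rat-allele Lefty2 (−0.15 to 0.75). With the mutants alone, Lefty1 for change 3 went to −0.092, and to −0.093 with the replicate block. The cause was not tested.

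Within 100 kb there were 20 more open and 55 less open ATAC peaks, 40 mESC and 19 RMES Cdx2 peaks (16 shared). With at least 100 scaled reads 3 ATAC peaks were more open and 12 less open, and without scaling 13 were less open. With at least 100 reads, 3 Cdx2 peaks stayed in mESCs and 0 in RMES cells (0 shared). Replicate numbers pair the mutants among themselves but not all conditions together. With 1 replicate block for all conditions, 1 member rose and 3 fell over the 9 constructs and 3 were higher and 4 lower with change 3, as without it, and 1 gene in place of 3 differed between mCdx2-OE and rCdx2-OE. With the replicate block set separately for the mutants and the intact lines, 2 members in place of 0 and 149 genes were higher or lower in mCdx2-OE than in rCdx2-OE, and 1 gene was called for change 1. With the mutants alone and the replicate block, 66 genes were called for change 1, 228 for change 2 and 8601 for change 3, and Smad7 passed for change 3 (−0.33), as it did without the block. The blocks changed no other member call. Fitting only the conditions compared called 5812 genes in place of 5339 in mCdx2-OE and 6063 in place of 5513 in rCdx2-OE with the same counts of members. For the 9 constructs the conditions compared are all 20 libraries, so no separate fit could be made.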
